A study of Mus musculus with 28 samples.

Results

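DNA replication genes were described as a set of 46 genes named by symbol, which cover origin recognition and licensing, the replicative helicase, the polymerases, the sliding clamp and its loader, single-strand binding, lagging-strand maturation and chromatin assembly behind the fork. All 46 were present in both deposited tables, among 15582 genes in the blastocyst table and 16745 in the morula table, and all 46 passed the filter on low values. The RNA came from whole CD1 mouse embryos, each sequenced alone, at 2 stages, in a study of the loss of CTCF, a DNA-binding protein that organises chromatin loops. The 14 blastocysts fell into 4 genotype groups: 3 embryos labelled WT_flfl, 4 labelled het, 4 labelled M_KO and 3 labelled MZ_KO. The 13 morulae comprised 3 embryos labelled het, 4 labelled del and 6 labelled MZKO. What each code stands for, the recombinase and its driver, and which embryos shared a mother are not stated in the labels. The titles carry a prefix that is shared by M_KO and MZ_KO blastocysts, and a different one that is shared by WT_flfl and het blastocysts, so MZ_KO against M_KO is the comparison within 1 prefix. In morulae, del and het share a prefix and MZKO has its own.

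DNA replication starts at origins bound by the origin recognition complex, where CDC6 and CDT1 load the ring-shaped MCM2-7 complex. The kinase CDC7 with DBF4, and the factors CDC45 and GINS, turn that ring into the active helicase. Polymerase alpha with primase lays down primers, polymerase epsilon and polymerase delta extend the leading and the lagging strand, the RFC complex loads the PCNA clamp, and the RPA complex coats exposed single strands. Many of these genes are textbook targets of E2F transcription factors.

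Promoter windows of the members were searched for an E2F-type motif, because E2F control is the best-known shared feature of these genes. The windows came from RefSeq on GRCm38.p6 and ran from 250 bases before to 50 bases after each annotated start. The motif was spelled out as TTTCCCGC, TTTCGCGC, TTTGCCGC and TTTGGCGC, on both strands, and a match overlapping another was counted too. Of the 46 members, 38 had a window, and 15 of these 38 (39.5%) held at least 1 match, beside 2.60% of the 27025 genes with a window. By window, 15 of 47 member windows and 2.26% of all 32851 windows held one. A match is a description of letters and not of binding. The 250 bases before the start are shown for 2 helicase genes that hold matches there, Mcm6 (chr1:128359706-128359955, minus strand) and Mcm7 (chr5:138171884-138172133, minus strand), and for 2 genes with none in their window, Rfc5 (chr5:117389024-117389273, minus strand) and Rpa1 (chr11:75348384-75348633, minus strand). All 4 belong to the members with lower levels in MZ_KO blastocysts described next. Matches are in capitals, and the longer run of capitals in Mcm6 is a pair of overlapping matches on opposite strands.
Mcm6: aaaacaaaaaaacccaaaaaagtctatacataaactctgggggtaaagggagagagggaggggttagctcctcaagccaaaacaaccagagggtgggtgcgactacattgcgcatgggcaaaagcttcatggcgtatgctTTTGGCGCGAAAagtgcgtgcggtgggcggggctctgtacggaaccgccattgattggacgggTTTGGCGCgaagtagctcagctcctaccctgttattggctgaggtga
Mcm7: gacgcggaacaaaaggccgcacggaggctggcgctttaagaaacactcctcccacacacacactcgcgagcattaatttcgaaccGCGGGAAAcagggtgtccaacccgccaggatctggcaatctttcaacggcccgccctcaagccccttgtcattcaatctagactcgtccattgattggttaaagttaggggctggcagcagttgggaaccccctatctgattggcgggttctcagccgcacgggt
Rfc5: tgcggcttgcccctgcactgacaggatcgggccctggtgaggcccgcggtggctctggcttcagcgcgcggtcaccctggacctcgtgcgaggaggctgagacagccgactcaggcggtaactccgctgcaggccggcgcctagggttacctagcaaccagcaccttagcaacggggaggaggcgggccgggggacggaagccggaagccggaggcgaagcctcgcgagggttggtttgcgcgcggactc
Rpa1: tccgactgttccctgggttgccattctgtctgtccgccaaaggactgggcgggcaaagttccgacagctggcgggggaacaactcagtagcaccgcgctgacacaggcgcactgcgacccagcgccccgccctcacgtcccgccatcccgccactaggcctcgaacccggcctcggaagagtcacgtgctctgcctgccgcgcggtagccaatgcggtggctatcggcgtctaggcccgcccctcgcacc
The other Mcm7 window of the RefSeq table held no match, and the window shown holds a further match after the start.

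Libraries held 7377302 to 27883060 reads in blastocysts and 12136606 to 20414013 in 12 of the 13 morulae, with del 6 at 1635553. Ctcf itself stood at 95.1 ± 6.02 CPM, the read count scaled to library size, in WT_flfl blastocysts (SD, n = 3) and at 3.62 ± 0.66 in MZ_KO (SD, n = 3), with no overlap of the embryos. It was 67.5 ± 9.73 in het and 69.5 ± 15.6 in M_KO blastocysts (SD, n = 4 each). Morulae had 38.6 ± 14.6 in het (SD, n = 3), 2.30 ± 2.68 in del (SD, n = 4) and 4.33 ± 3.60 in MZKO (SD, n = 6). The exact two-sided permutation test gave p = 0.0286 for MZ_KO against het and p = 0.0119 for MZKO against het, each the smallest p those group sizes allow, and p = 0.1 for MZ_KO against WT_flfl, where no smaller p is possible. In 2 morulae, het 1 and MZKO 1, markers of 3 other cell types were summed highest, and every listed marker that the table holds (5 of 6 for red blood cells, 3 of 6 for granulosa cells and 4 of 4 for oviduct epithelium) was above 0, as in several other morulae. Their red blood cell sums were 15500 CPM in het 1 and 4082 CPM in MZKO 1, against 7.41 to 1306 CPM in the other morulae. Their oviduct marker sums were 1278 and 1957 CPM, against 1.00 to 319 CPM, and their granulosa sums 1457 and 258 CPM, against 2.05 to 216 CPM. Of these granulosa sums, Star alone gave 1317 CPM in het 1 and 230 CPM in MZKO 1. The replication genes were also lowest in sum in these 2 embryos, and the part of these markers in that was not tested. The morula results are given with and without these 2 embryos and the shallow del 6, a choice made after seeing the data. In blastocysts the red blood cell sum was highest in WT_flfl 1 (34483 CPM) and het 6 (31474 CPM).

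Per kilobase of exon, levels of the 46 genes spanned more than an order of magnitude. The length used joins all annotated exons of a gene, not those of the transcripts present, so this order depends on the annotation too. In WT_flfl blastocysts, Gmnn, which encodes the licensing inhibitor geminin, led with 139 ± 7.96 CPM per kb (SD, n = 3). Mcm5 followed at 120.3 ± 24.9 CPM per kb, with a spread that reached the means of both Gmnn and the next gene, Gins4 (108 ± 14.6). The lowest were Prim2 at 6.67 ± 0.75, Pola1 at 6.32 ± 2.2 and Pole, the catalytic subunit of polymerase epsilon, at 3.62 ± 0.05 CPM per kb. In het morulae Gmnn again had the highest mean (136 ± 68.9 CPM per kb), with a spread that reached that of Gins4 (96.6 ± 23.2), and Chaf1a the lowest (1.89 ± 0.62; SD, n = 3). Of the 46 genes, 17 had a higher mean CPM in het morulae than in het blastocysts and 29 a lower one. The tables were scaled separately and, in the libraries analysed, sequencing batch coincides with stage, so the difference of levels between stages cannot be told apart from batch and scaling.

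In MZ_KO blastocysts, a minority of the replication genes fell and none passed as higher. Against WT_flfl, 10 of 46 members (21.7%) were lower at an adjusted p under 0.05 in limma, where 8.36% of all 9585 genes tested were lower. No member was higher, where 4.84% of all genes were, although 2 members had a higher level at an unadjusted p under 0.05. Against het, 9 members were lower (19.6%, with 10.8% of all genes lower) and 0 were higher (7.02% of all genes), with 3 higher at an unadjusted p under 0.05. Without het 3, 1 member, Pold3, passed as higher against het. Against M_KO, 10 members were lower, with 8.09% of all genes lower, and 0 were higher, with 3.74% of all genes higher and 2 members higher at an unadjusted p under 0.05. Fitting with voom weights instead called 10, 9 and 9 members, all lower. The members' median log2 fold change was -0.39, -0.35 and -0.43 in the 3 comparisons, beside -0.05, -0.06 and -0.03 for all genes tested. The 3 comparisons share the MZ_KO embryos, so they are given side by side and not as repeats of each other. In whole embryos, fewer cells of a type and less RNA per cell cannot be told apart.

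A group of 8 members was lower in all 3 comparisons, namely Mcm3, Mcm6, Mcm7, Pold1, Pole, Rfc5, Rpa1 and Chaf1a. Prim2 was lower against WT_flfl and M_KO, Lig1 against WT_flfl and het, and Mcm2 against M_KO. The other 35 members passed in none. By embryo, all 3 MZ_KO values lay below all 11 other blastocysts for 7 of 46 members (15.2%), where 6.85% of all genes tested did so, and these 7 were Mcm3, Mcm6, Gins4, Pold1, Pole, Rfc5 and Rpa1. All 3 lay above for 2 members, Gins3 and Pold3 (4.35%), where 6.13% of all genes did so. The plot of fold changes by role shows that the calls were spread over several complexes, and that outside MCM2-7 each role with a call in MZ_KO against WT_flfl had 1.

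**Figure D1:**
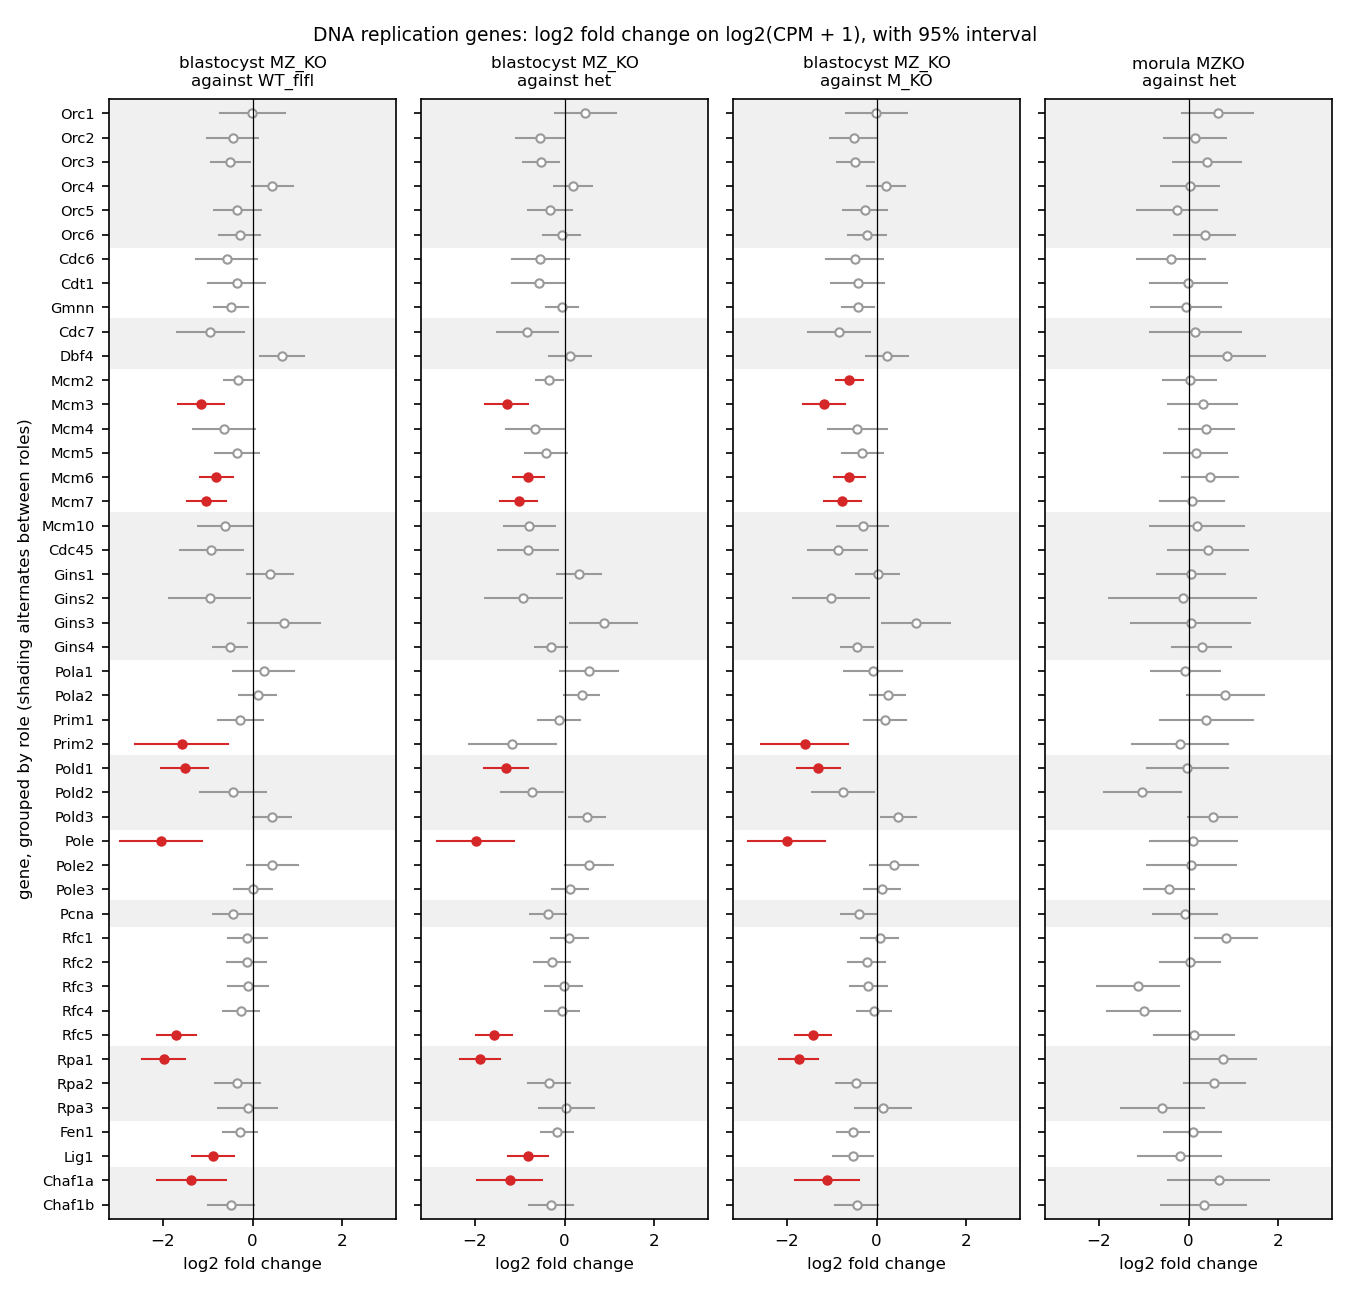
Log2 fold change on log2(CPM + 1) (horizontal axis) with its 95% interval for each of the 46 genes (vertical axis, grouped by role), in MZ_KO blastocysts against each other blastocyst group and in MZKO against het morulae. Filled red points passed an adjusted p under 0.05 in limma: 10, 9 and 10 genes in the blastocyst comparisons, all below 0, and 0 genes in the morula comparison.

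Origin recognition and licensing genes gave no call in MZ_KO blastocysts. Of all genes, 8.36%, 10.8% and 8.09% were lower in the 3 comparisons. At such shares so few genes give few or no calls, so these roles are not shown to be spared. Of Orc1 to Orc6, which build the complex that marks origins, 0 of 6 passed in any of the 3 comparisons, and their median log2 fold change against WT_flfl was -0.31. The largest of them was Orc3, at 67.5 CPM in MZ_KO and 94.5 in WT_flfl (log2 fold change -0.49, SE 0.21, adjusted p = 0.12). Cdc6, Cdt1 and Gmnn did not pass either, with a median of -0.48. Nor did the firing kinase Cdc7 (log2 fold change -0.94, SE 0.35, adjusted p = 0.084) and its activator Dbf4 (0.66, SE 0.24, adjusted p = 0.075), whose estimates lay on opposite sides of 0.

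Of the MCM2-7 ring, which unwinds DNA at the fork, 3 of 6 subunits fell against both WT_flfl and het. In these comparisons 8.36% and 10.8% of all genes were lower. Against M_KO 4 of 6 fell, with 8.09% of all genes lower. Mcm3 (ENSMUSG00000041859, chr1:20802968-20820312; positions here and for the next genes are on GRCm38) stood at 101, 98.0 and 89.8 CPM in MZ_KO embryos and at 217, 283 and 163 in WT_flfl. It was 265, 239, 198 and 250.2 in het and 237, 136, 281 and 251 in M_KO. Every MZ_KO embryo was below every other blastocyst, and the lowest other embryo was M_KO 3. The log2 fold change was -1.16 (SE 0.24, adjusted p = 0.0051) against WT_flfl and -1.29 (SE 0.23, adjusted p = 0.0012) against het. Mcm6 (ENSMUSG00000026355, chr1:128331590-128359664) was 208, 207 and 276 CPM in MZ_KO, against 370.4, 459 and 377 in WT_flfl, 323, 448, 470.3 and 381 in het and 413, 314, 367 and 309 in M_KO. Again no MZ_KO embryo reached any other, and the fold change was the smallest of the 8 (-0.81, SE 0.18, adjusted p = 0.0065 against WT_flfl). Mcm7 (ENSMUSG00000029730, chr5:138164583-138172422) was 133, 196 and 146 CPM in MZ_KO, against 336, 353 and 275 in WT_flfl, 285, 351, 324 and 315 in het and 327, 184, 320 and 257 in M_KO. Here MZ_KO 6 lay just above M_KO 3, the only overlap, and the log2 fold change against WT_flfl was -1.03 (SE 0.21, adjusted p = 0.0037). Exons of Mcm7 overlap those of Ap4m1 and Cops6 and the microRNA genes Mir25 and Mir93, and the library kit does not mark strand, so reads from the shared exons cannot be assigned to either gene by strand. Mcm2, Mcm4 and Mcm5 did not pass against WT_flfl, with log2 fold changes of -0.32, -0.64 and -0.34, and Mcm2 fell only against M_KO (-0.61, SE 0.14, adjusted p = 0.012). Against M_KO, the Mcm6 call was lost without M_KO 1, M_KO 4, MZ_KO 2 or MZ_KO 6 (adjusted p up to 0.095), the Mcm7 call without M_KO 1, M_KO 4, MZ_KO 2 or MZ_KO 7 (up to 0.082) and the Mcm2 call without MZ_KO 6 (0.053).

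The helicase partners Mcm10, Cdc45 and Gins1 to Gins4 gave 0 calls of 6 in all 3 comparisons, and their estimates went both ways. With 8.36%, 10.8% and 8.09% of all genes lower, 0 of 6 does not set them apart. Cdc45, which joins the ring when an origin fires, was 64.4 ± 28.8 CPM in MZ_KO and 118 ± 39.4 in WT_flfl (SD, n = 3 each; adjusted p = 0.079). Gins3, a subunit of the GINS complex, was 50.8 ± 4.71 in MZ_KO and 32.7 ± 13.6 in WT_flfl (adjusted p = 0.24). Gins4 was 102 ± 4.08 in MZ_KO and 145 ± 19.7 in WT_flfl (adjusted p = 0.076).

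Among the polymerases, Pole and Pold1, the catalytic subunits of the leading- and lagging-strand enzymes, fell. The accessory subunits among the 46 (Pole2, Pole3, Pold2 and Pold3) did not pass against WT_flfl. With 8.36% of all genes lower there, so few genes give few or no calls. A split between catalytic and accessory subunits is therefore not shown. Pole (ENSMUSG00000007080, chr5:110286306-110337474) was 20.2, 3.21 and 10.5 CPM in MZ_KO, against 40.7, 40.9 and 39.8 in WT_flfl, 32.7, 36.3, 44.8 and 42.5 in het and 51.2, 31.3, 28.6 and 52.5 in M_KO. All MZ_KO values lay below the others but differed widely among themselves. The log2 fold change of Pole against WT_flfl was -2.04 (SE 0.43, adjusted p = 0.0057), the largest of the 46, which is 4.11-fold lower with a 95% interval of 2.18 to 7.78. Without MZ_KO 6 it was -1.41 (adjusted p = 0.015). The accessory subunits Pole2 and Pole3 had estimates of 0.44 (SE 0.27, adjusted p = 0.31) and 0.01 (SE 0.20, adjusted p = 0.98). Pold1 (ENSMUSG00000038644, chr7:44532746-44548849), the catalytic subunit of polymerase delta, was 31.2, 36.9 and 25.1 CPM in MZ_KO, against 78.0, 107 and 86.3 in WT_flfl. It was 96.7, 60.4, 83.8 and 73.6 in het and 94.1, 68.4, 93.1 and 59.1 in M_KO, again with no overlap. Its log2 fold change was -1.52 (SE 0.24, adjusted p = 7.71e-04) against WT_flfl. Pold3 was 247 ± 9.20 CPM in MZ_KO and 186 ± 48.4 in WT_flfl (adjusted p = 0.15), and Pold2 21.9 ± 5.95 and 31.1 ± 13.9 (SD, n = 3 each; adjusted p = 0.45).

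Of polymerase alpha and primase, Prim2, the large primase subunit, was 15.04, 33.0 and 3.54 CPM in MZ_KO and 36.3, 37.9 and 44.7 in WT_flfl. The 3 MZ_KO embryos differed widely, and MZ_KO 6 came close to WT_flfl. The call against WT_flfl (-1.58, SE 0.49, adjusted p = 0.042) passed in 6 of 15 alternatives. It was lost without MZ_KO 7 (-0.79, adjusted p = 0.13), MZ_KO 2 (adjusted p = 0.070) or any 1 of the 3 WT_flfl embryos (0.081 to 0.11). The call against M_KO passed in 9 of 15 alternatives, and was lost without MZ_KO 7 (-0.82, adjusted p = 0.12), MZ_KO 2 (0.060), M_KO 1 (0.081), M_KO 4 (0.062) or M_KO 5 (0.060). Against het Prim2 did not pass (-1.17, SE 0.46, adjusted p = 0.089). Pola1, Pola2 and Prim1 were not called in any of the 3 comparisons.

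Of the clamp and its loader, 1 of 6 genes fell in each comparison, a count near what 8.36%, 10.8% and 8.09% of all genes lower would give. Rfc5 (ENSMUSG00000029363, chr5:117378103-117389047), a small subunit of the RFC complex, was 59.2, 75.3 and 73.9 CPM in MZ_KO and 205, 229 and 248 in WT_flfl. It was 207, 242, 169 and 227 in het and 234, 142, 224 and 164 in M_KO. The highest MZ_KO embryo lay far below the lowest other blastocyst. The log2 fold change was -1.70 (SE 0.20, adjusted p = 5.10e-05) against WT_flfl, or 3.25-fold lower with a 95% interval of 2.42 to 4.38, and -1.42 (SE 0.19, adjusted p = 1.45e-04) against M_KO. Exons of Rfc5 overlap those of Wsb2 on the other strand. Rfc1 to Rfc4 had estimates between -0.25 and -0.11 against WT_flfl, and Pcna, the clamp itself, was 103 ± 6.58 CPM in MZ_KO and 141 ± 8.93 in WT_flfl (SD, n = 3 each; log2 fold change -0.44, SE 0.20, adjusted p = 0.16).

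Rpa1 (ENSMUSG00000000751, chr11:75298166-75348324), the large DNA-binding subunit of the RPA complex, had the smallest p of the 46. It was 28.2, 31.2 and 21.6 CPM in MZ_KO and 118, 115 and 93.8 in WT_flfl. It was 89.04, 97.8, 98.6 and 123 in het and 122, 75.6, 76.7 and 99.4 in M_KO. No MZ_KO embryo reached the lowest of the other 11, which was M_KO 3. The log2 fold change was -1.98 (SE 0.22, adjusted p = 3.09e-05) against WT_flfl, -1.89 (SE 0.21, adjusted p = 2.11e-05) against het and -1.74 (SE 0.21, adjusted p = 5.70e-05) against M_KO. The partner subunit Rpa2 was 127 ± 21.1 CPM in MZ_KO and 163 ± 38.8 in WT_flfl, and Rpa3 was 35.1 ± 12.6 and 37.2 ± 10.1 (SD, n = 3 each; adjusted p = 0.37 and 0.86).

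Of lagging-strand maturation, Lig1, the ligase that seals joined fragments, was 57.8, 116 and 71.7 CPM in MZ_KO. It was 130.4, 158 and 147 in WT_flfl, 119, 156, 147 and 135 in het and 110.0, 99.7, 109 and 137 in M_KO. MZ_KO 6 overlapped M_KO and lay just below the lowest het embryo. Its log2 fold change was -0.88 (SE 0.22, adjusted p = 0.015) against WT_flfl, and the call against WT_flfl and against het was lost without MZ_KO 2 (adjusted p = 0.075 and 0.079), and that against WT_flfl also without WT_flfl 7 (0.062). Fen1, the flap nuclease, did not pass (-0.29, SE 0.18, adjusted p = 0.31). Chaf1a (ENSMUSG00000002835, chr17:56040439-56072289), the large subunit of chromatin assembly factor 1, which places histones behind the fork, was 27.2, 45.3 and 73.9 CPM in MZ_KO. It was 76.4, 158 and 134 in WT_flfl, 117, 121, 74.1 and 125 in het and 110, 59.0, 138 and 104 in M_KO. MZ_KO 7 lay above M_KO 3 and close to het 6 and WT_flfl 1. The log2 fold change of Chaf1a against WT_flfl was -1.36 (SE 0.36, adjusted p = 0.021), and without MZ_KO 2 it was -1.01 (adjusted p = 0.10). That call was also lost without WT_flfl 7 (adjusted p = 0.092) or WT_flfl 9 (0.069), the call against het without MZ_KO 2 (0.12) or MZ_KO 6 (0.052), and the call against M_KO passed in 6 of 15 alternatives. Its partner Chaf1b was 54.1 ± 3.78 CPM in MZ_KO and 76.2 ± 7.60 in WT_flfl (SD, n = 3 each; adjusted p = 0.21).

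**Figure D2:**
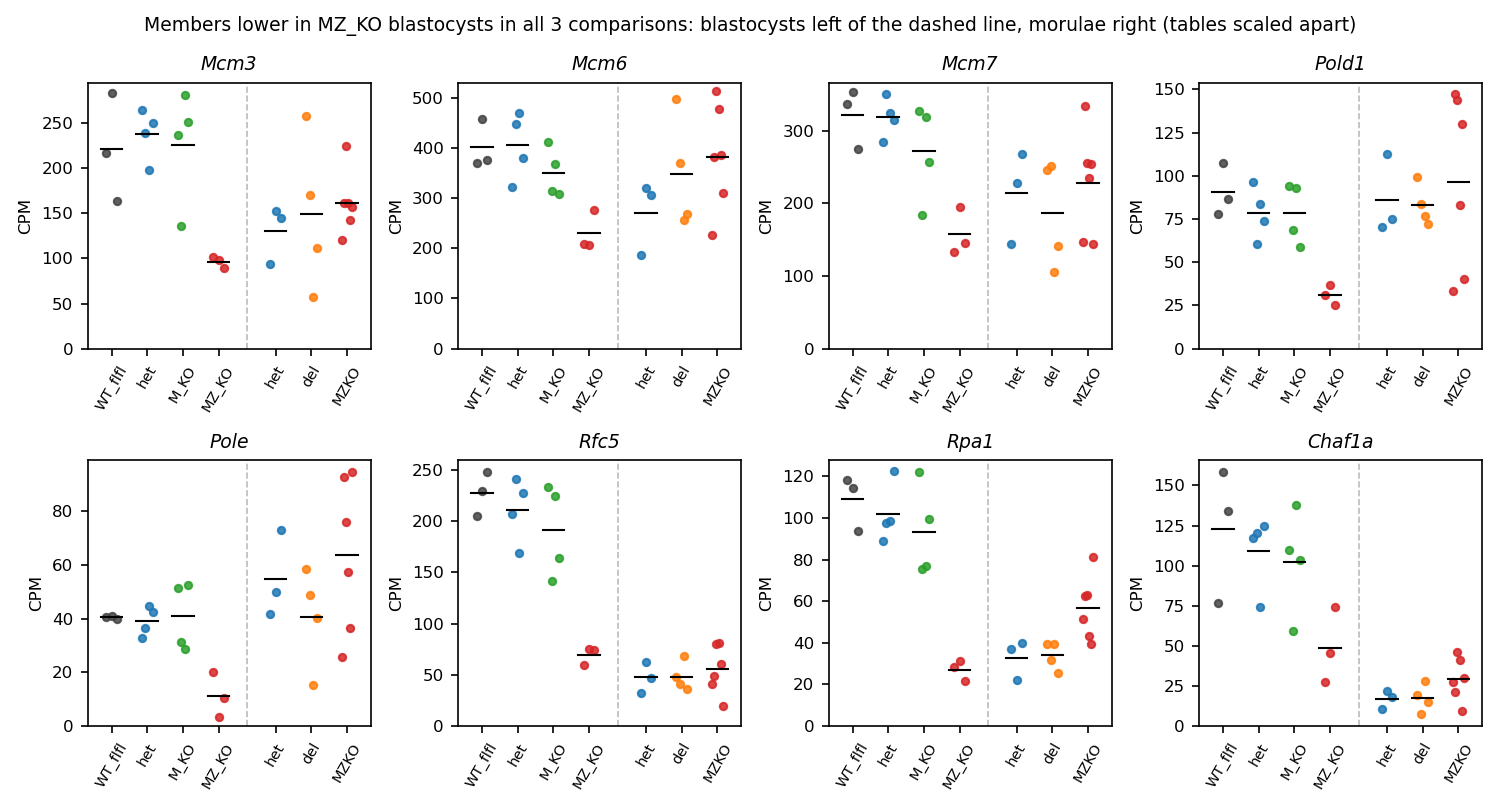
CPM of each embryo (points) and group means (lines) for the 8 genes that were lower in MZ_KO blastocysts in all 3 comparisons, with blastocysts left and morulae right of the dashed line; the stages were scaled separately. MZ_KO blastocysts lie below all other blastocysts for Mcm3, Mcm6, Pold1, Pole, Rfc5 and Rpa1, and overlap M_KO for Mcm7 and Chaf1a, while MZKO morulae overlap het morulae for all 8, for Rpa1 with the lowest MZKO embryo only.

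Some markers of the embryo's own cell types also differed in MZ_KO. Of 8 markers of trophectoderm, the outer layer of the blastocyst, 7 were tested and 2 were lower in each of the 3 comparisons (8.36%, 10.8% and 8.09% of all genes were lower). The summed level was 3830 to 5062 CPM in MZ_KO, 7030 to 7292 in WT_flfl, 4697 to 7419 in het and 5429 to 9232 in M_KO. Keratins made up a large part of these sums. The largest single marker was Krt18 in MZ_KO (1616 to 2087 CPM) and Krt8 in the other blastocysts (2049 to 4221 CPM). Of 5 primitive endoderm markers, 4 were tested and 2 were lower in each comparison. Their sums were 189 to 233 CPM in MZ_KO, 180 to 290.1 in WT_flfl, 164 to 527 in het and 190 to 313 in M_KO. The MZ_KO sums lay within the WT_flfl range, but Gata6 was the largest single marker in every blastocyst. Gata6 stood at 139 to 175 CPM in MZ_KO and 90.8 to 235 in the others. Gata4 was at 0 in MZ_KO 2 and MZ_KO 6 and above 0 in the other blastocysts. Sums of the 6 epiblast markers were 862 to 1046 CPM in MZ_KO 720.0 to 954 in WT_flfl, 715 to 882 in het and 1003 to 1053 in M_KO. Of the 5 epiblast markers tested, 1 was lower in each comparison. Higher were 1 against WT_flfl, 2 against het and 1 against M_KO, where 4.84%, 7.02% and 3.74% of all genes were higher. No red blood cell, granulosa or oviduct marker passed in MZ_KO against any of the 3 groups. The part of these markers in the lower replication genes was not tested.

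The sum over the 46 genes, which contains the genes called above, was lowest in MZ_KO. It took 0.447%, 0.492% and 0.496% of the scaled library in the 3 MZ_KO embryos and 0.508% to 0.705% in the 11 other blastocysts. The lowest of those 11 was M_KO 3. Group means were 0.647% ± 0.060 in WT_flfl (SD, n = 3), 0.631% ± 0.040 in het, 0.632% ± 0.085 in M_KO (SD, n = 4 each) and 0.478% ± 0.027 in MZ_KO (SD, n = 3). The MCM2-7 genes alone made up 0.216%, 0.220%, 0.213% and 0.142% in the same order, so the sum does not describe the other members by themselves. In morulae the sum was 0.491% ± 0.135 in het (SD, n = 3), 0.546% ± 0.088 in del (SD, n = 4) and 0.563% ± 0.124 in MZKO (SD, n = 6). The embryos het 1 (0.337%) and MZKO 1 (0.334%) were lowest, and the other 11 morulae spanned 0.461% to 0.673% with all 3 groups mixed.

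**Figure D3:**
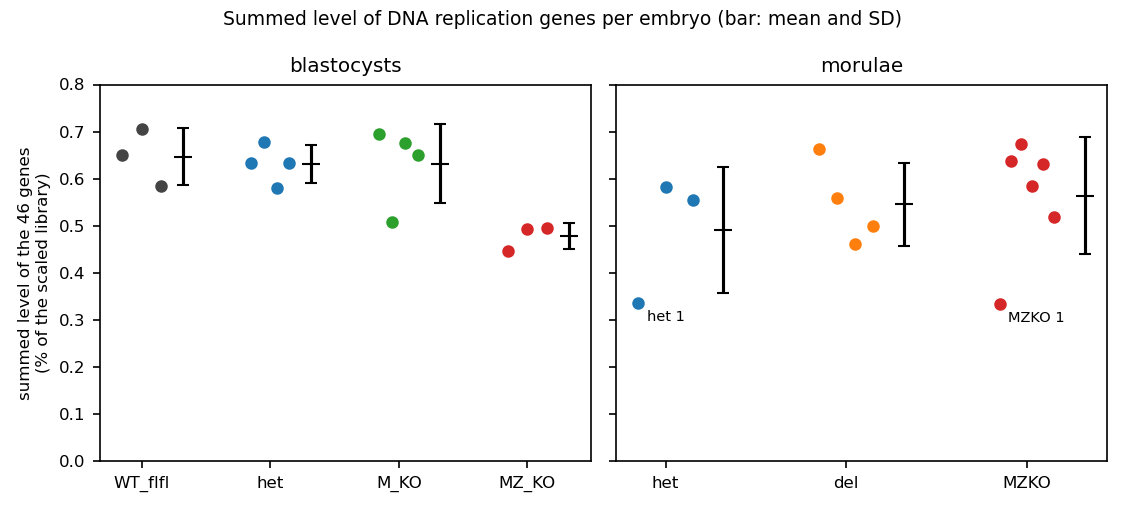
Summed level of the 46 genes as a percentage of the scaled library (vertical axis) in each embryo (points), with the mean and SD of each group (bars). The 3 MZ_KO blastocysts, at 0.447% to 0.496%, lie below all other blastocysts, and the morula groups overlap.

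Within an embryo, the ratio of 2 subunits of a complex does not depend on the scaling of the library. These ratios were chosen after the levels were seen, so they describe the size of the imbalance and support nothing further. The ratio of Rpa1 to Rpa2 CPM was 0.207 to 0.218 in MZ_KO blastocysts and 0.358 to 0.791 in the other blastocysts. The ratio of Rfc5 to Rfc2 was 0.393 to 0.529 in MZ_KO and 0.964 to 1.53 in the others. For Pole to Pole2 the ranges were 0.048 to 0.261 and 0.552 to 1.02, and for Pold1 to Pold3 they were 0.097 to 0.152 and 0.275 to 0.655. In none of these 4 did MZ_KO overlap the other blastocysts. Of 3 further ratios computed, that of Mcm3 to Mcm5 did not overlap either, at 0.187 to 0.386 in MZ_KO and 0.419 to 0.551 in the others. The ratio of Mcm7 to Mcm2 overlapped, at 0.341 to 0.575 and 0.382 to 0.751, and so did that of Chaf1a to Chaf1b, at 0.482 to 1.49 and 1.00 to 2.18. In morulae the ranges of MZKO and het overlapped for the first 4 ratios, for example 0.125 to 0.369 and 0.113 to 0.288 for Rpa1 to Rpa2. In del morulae Pole to Pole2 was 0.894 to 1.25, below both het (1.45 to 2.18) and MZKO (1.35 to 3.43). The rest of these 4 overlapped between del and het.

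**Figure D4:**
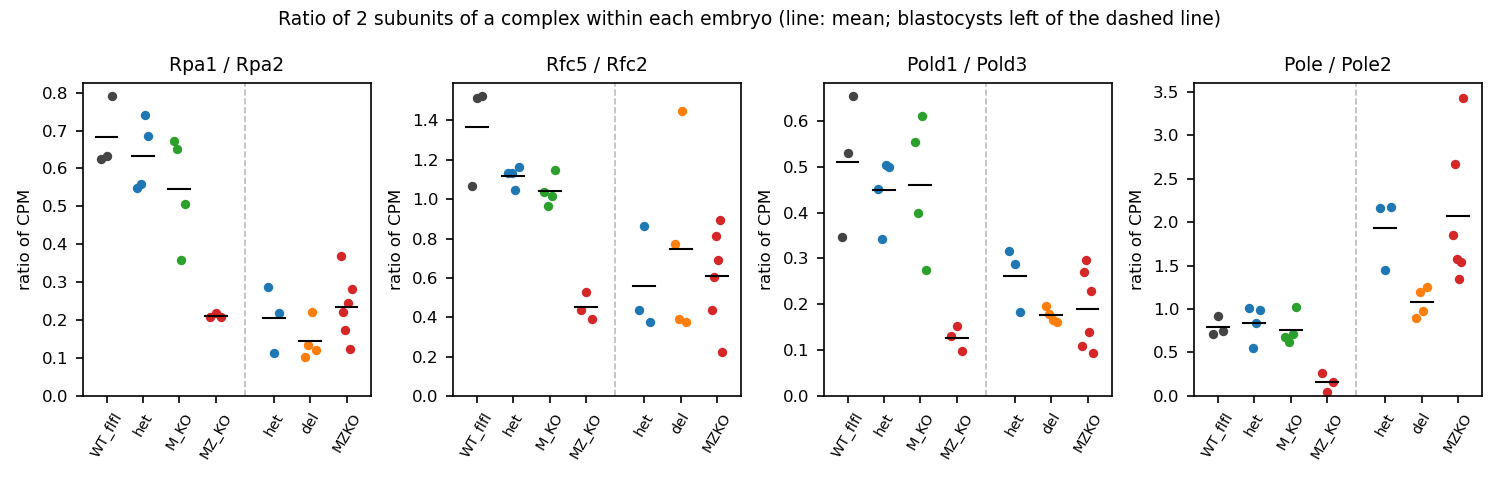
Ratio of the CPM of 2 subunits of a complex (vertical axes) in each embryo (points) and its mean per group (lines), with blastocysts left and morulae right of the dashed line. The MZ_KO blastocysts lie below the other blastocysts in the 4 ratios drawn. MZKO and het morulae overlap, and del morulae lie below both for Pole to Pole2. Of 3 ratios not drawn, Mcm7 to Mcm2 and Chaf1a to Chaf1b overlapped between MZ_KO and the other blastocysts.

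M_KO and het blastocysts did not differ detectably from WT_flfl or from each other in these genes. In M_KO against WT_flfl, limma called 0 of 46 members and 0% of all genes, and 0 members passed an unadjusted p under 0.05, beside 5.15% of all genes. In M_KO against het it called 0 members and 0% of all genes, with 3 members (Pola1, Fen1 and Gmnn, all higher) at an unadjusted p under 0.05, beside 6.66% of all genes. In het against WT_flfl it called 0 members and 0% of all genes, with 2 members (Gmnn lower and Dbf4 higher) at an unadjusted p under 0.05, beside 1.95%. The voom fit called 0 in each. The median log2 fold change of the members was -0.05, 0.00 and -0.09. The median SE of a member's log2 fold change was 0.22 in M_KO against WT_flfl, which limits how small a change could be detected.

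No replication gene passed in morulae. In MZKO against het, limma called 0 of 46 members and 0.482% of all 9953 genes tested, with 6 members at an unadjusted p under 0.05 (8.66% of all genes). In del against het it called 0 members and 0.01% of all genes, with 1 member, Orc1, at an unadjusted p under 0.05 (5.05% of all genes). In MZKO against del it called 0 members and 0.181% of all genes, with 4 members at an unadjusted p under 0.05 (8.25% of all genes). The voom fit called 0 members in each. Without MZKO 1, het 1 and del 6, limma called 1, 0 and 0 members, beside 98, 10 and 20 of all 9009 genes. The members' median log2 fold change was 0.10, 0.03 and 0.03, beside -0.02, -0.04 and 0.02 for all genes. Morulae varied more than blastocysts: the median coefficient of variation of a member within a group was 29.6% to 34.0%, against 16.1% to 21.3% in blastocysts, and the median SE of a member's log2 fold change was 0.37 in MZKO against het and 0.22 in MZ_KO against het.

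The members with the smallest p in MZKO against het morulae belonged to the clamp loader, polymerase delta, RPA and the firing kinase, and went both ways. Rfc4, a small RFC subunit, was 21.8 to 60.9 CPM in MZKO with a median of 52.4, and 43.4, 142 and 122 in het. Every MZKO embryo lay below het 5 and het 7, and the groups overlapped through het 1 (log2 fold change -1.0, SE 0.39, adjusted p = 0.41). Without MZKO 1, het 1 and del 6, Rfc4 passed (-1.33, SE 0.29, adjusted p = 0.042). Rfc3 was 9.05 to 42.9 CPM in MZKO with a median of 29.9, and 42.1, 68.9 and 59.1 in het (-1.13, SE 0.44, adjusted p = 0.41, and 0.20 without those 3 embryos), and only MZKO 3 reached into the het range. Rfc1, the large loader subunit, was 97.0 to 259 CPM in MZKO and 73.7, 129.8 and 128 in het (0.83, SE 0.33, adjusted p = 0.43). Pold2 stood at -1.03 (SE 0.41, adjusted p = 0.43), Rpa1 at 0.77 (SE 0.35, adjusted p = 0.55) and Dbf4 at 0.86 (SE 0.40, adjusted p = 0.56). Without the 3 embryos the adjusted p was 0.15 for Rfc1, 0.15 for Pold2, 0.28 for Rpa1 and 0.50 for Dbf4.

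In morulae, MZKO and het embryos overlapped for the members that fell in MZ_KO blastocysts. Pole was 25.7 to 94.4 CPM in MZKO with a median of 66.6, and 41.7 to 73.0 in het (log2 fold change 0.10, 95% interval -0.87 to 1.08). Pold1 was 33.6 to 147.6 CPM in MZKO, and 70.6 to 112 in het (-0.03, 95% interval -0.93 to 0.87). Mcm6 was 227 to 513 CPM in MZKO, and 188 to 321 in het (0.48, 95% interval -0.15 to 1.11). For each of these the MZKO and het embryos overlapped. Rfc5 was 19.2 to 81.4 CPM in MZKO and 32.6 to 62.3 in het (0.12, 95% interval -0.76 to 1.01). Chaf1a was 9.47 to 46.4 CPM in MZKO and 10.8 to 21.5 in het (0.67, 95% interval -0.46 to 1.79). Mcm3 was 120.2 to 224.8 CPM in MZKO and 94.0 to 152.2 in het, and Mcm7 143.6 to 334.0 and 144.4 to 268.7.

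The knockout effect on Rpa1 differed between the stages. In the test of the effect in blastocysts (MZ_KO against het) minus that in morulae (MZKO against het), 1 of 46 members passed, with 1.61% of all 8572 genes passing, and 14 members had an unadjusted p under 0.05, beside 17.7% of all genes. That member was Rpa1, with a difference of -2.66 on the log2 scale (SE 0.38, adjusted p = 3.81e-04). In morulae Rpa1 was 36.8, 22.1 and 39.7 CPM in het, 39.4, 31.9, 39.5 and 25.5 in del and 39.5 to 81.1 with a median of 56.9 in MZKO. MZKO morulae therefore overlapped het at the low end only, whereas MZ_KO blastocysts lay below all others. The difference passed in all 26 alternatives run, with values from -2.81 to -2.40. The other 7 members that were lower in all 3 blastocyst comparisons had differences from -2.09 for Pole to -1.10 for Mcm7, and adjusted p from 0.054 for Mcm6 to 0.19 for Pold1. Leaving out morula MZKO 1 alone added Mcm3, Mcm6, Pole and Rfc5, with 220 of all 8387 genes passing. Leaving out het 1 alone added Rfc4, with 706 of all 8404 genes passing. Without the 3 morulae MZKO 1, het 1 and del 6, Mcm6, Pole, Rfc5, Rpa1 and Rfc4 passed, of which Rfc4 went the other way (1.26, SE 0.29, adjusted p = 0.0065). In that fit 906 of all 8167 genes passed, a share close to that of the members. Batch and stage coincide in this test, and the 2 knockout groups carry different labels and prefixes, so stage, batch and prefix cannot be told apart.

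**Figure D5:**
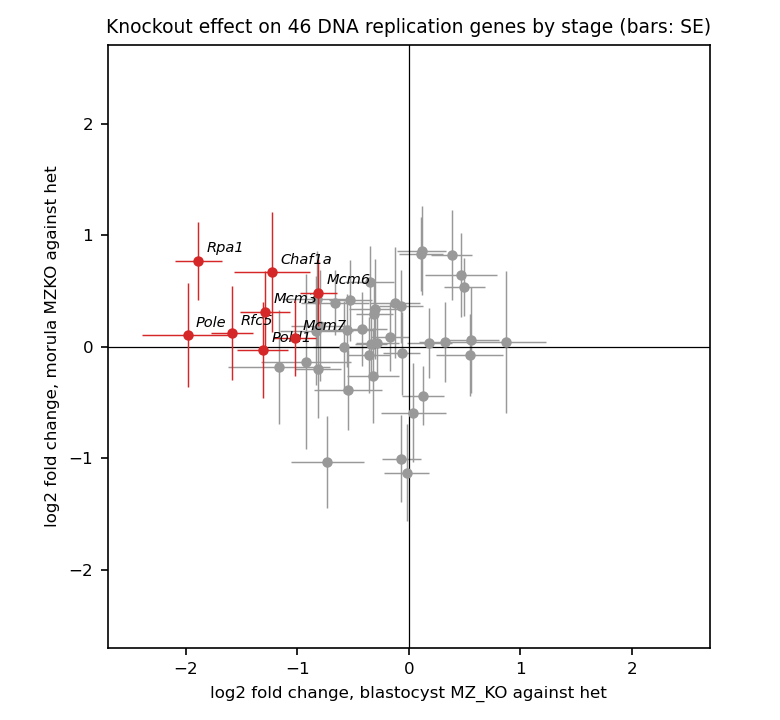
Log2 fold change of MZ_KO against het in blastocysts (horizontal axis) and of MZKO against het in morulae (vertical axis) for each of the 46 genes, with SE bars; named red points are the 8 genes lower in all 3 blastocyst comparisons. Rpa1 lies at -1.89 and 0.77, and the other 7 lie between -1.98 and -0.81 in blastocysts and between -0.03 and 0.67 in morulae.

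What the 8 genes share beyond their levels was limited. They lie on chromosomes 1, 5, 7, 11 and 17, of the 15 chromosomes that hold a member. Of the 8, 7 had a promoter window, and 4 of these 7 (Mcm3, Mcm6, Mcm7 and Pold1) held an E2F-type match, beside 11 of 31 (35.5%) of the other members with a window. Exons of 17 of the 46 members overlap another annotated gene, and Mcm7, Pole, Rfc5, Rpa1 and Chaf1a are among them. A processed copy of Pcna, Pcna-ps2, is in both tables, so reads of Pcna are uncertain where counting could split them.

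Other genes of the replication pathway were called in MZ_KO blastocysts as well. Of 66 genes in 4 lists (fork and firing accessory genes, S-phase checkpoint genes, E2F factors and pocket proteins, and deoxynucleotide supply), 61 were tested in blastocysts. Of these, 10 were lower and 1 higher in MZ_KO against WT_flfl, 9 and 1 against het, and 8 and 1 against M_KO, where 8.36%, 10.8% and 8.09% of all genes tested were lower and 4.84%, 7.02% and 3.74% higher. Lower calls outnumbered higher ones among all genes too. Among the 33 accessory genes, 7 were lower against WT_flfl, among 10 checkpoint genes 0, among 8 E2F and pocket genes 2 and among 10 deoxynucleotide genes 1. Donson, a fork stability factor, was 9.80 ± 4.16 CPM in MZ_KO and 41.2 ± 11.8 in WT_flfl (SD, n = 3 each; log2 fold change -2.0, adjusted p = 0.0011). Uhrf1, which recruits DNA methyltransferase to replicated DNA, was 57.0 ± 24.2 and 215 ± 38.7 (-1.97, adjusted p = 2.55e-04). Asf1a, a histone chaperone, was 34.9 ± 9.60 and 89.2 ± 3.38 CPM (-1.36, adjusted p = 0.0018). Wdhd1, which links the helicase to polymerase alpha, was 21.3 ± 2.68 and 54.7 ± 22.2 CPM (-1.24, adjusted p = 0.039). The transcription factor E2f1 was 20.1 ± 4.78 CPM in MZ_KO and 47.1 ± 4.11 in WT_flfl (-1.21, adjusted p = 0.0067), and its dimer partner Tfdp1 123 ± 13.5 and 217 ± 13.2 (-0.81, adjusted p = 0.014; SD, n = 3 each). The single higher gene was Pole4, a small histone-fold subunit of polymerase epsilon, named after its value was seen, at 169 ± 28.0 CPM in MZ_KO and 109 ± 13.6 in WT_flfl (0.62, adjusted p = 0.047). None of the 59 tested in morulae passed in MZKO against het. In the difference between stages 1 of 57 passed, Wdhd1 (-2.02, SE 0.50, adjusted p = 0.035), a share close to the 1.61% of all genes that passed.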

How the data were processed

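Poly(A) RNA of each embryo was amplified with the Clontech SMART-Seq kit, which does not mark strand, and sequenced on an Illumina HiSeq, per the labels' protocols. The submitters' processing notes name cutadapt 1.14, Bowtie2 2.2.9 and RSEM 1.3.1 with GRCm38 and mm10. The values are log2 units that the authors deposited in a table for each stage, scaled apart. The values behaved as log2 CPM with 0.5 reads added, and removing this gave whole reads for 100% of values within 0.01 reads. The blastocyst table has 3 entries that name no mouse gene, which took at most 0.0113% of an embryo's reads and were left out. Of 28 labelled samples, 27 had a column, and a repeat library of blastocyst het 3, labelled for the sequencing batch of the morulae, was not analysed here. Symbols and positions came from GENCODE M21 (GRCm38).

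Tests were run on log2(CPM + 1), where fold changes of low genes are understated. Genes reaching 10 CPM in 3 or more embryos were tested with limma 3.58.1 in R 4.3.3, with a trended moderated variance and all groups of a stage in 1 fit. The fit was tested on simulated data. Tests were two-sided, with the Benjamini-Hochberg adjustment over all genes tested and a threshold of 0.05. Ctcf was compared by exact permutation of embryos in Python 3.11.15 with scipy 1.17.1. Errors are SD over embryos for levels and SE for fitted changes. The labels do not say that embryos came from separate litters, so p-values measure only the spread between these embryos. The members, lists and named genes were chosen with earlier results of these data known. Named with every embryo's value were members past the threshold in MZ_KO against both WT_flfl and het, and, with group means, at most 6 such genes of the other lists by size of change. Alternatives changed the pseudocount, filter, scaling, weights, groups in the fit, a replicate block and single embryos. A search of member proteins for the PCNA-binding motif was planned and was not run here.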

Additional observations from a re-analysis of the deposited data

Results flagged for a closer look

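Within groups of 4 to 6 embryos, 7 values of a replication gene lay far from the rest of their group, of 184 groups of values examined. The 95% critical value used flags about 1 group in 20 by chance, so 7 of 184 is no more than chance alone would give. In M_KO 3 these were Pola1, the catalytic subunit of polymerase alpha, at 103.8 CPM (53.6 to 61.9 in the other M_KO blastocysts), Fen1 at 199 CPM (297 to 303) and Chaf1b at 58.9 CPM (78.8 to 81.9). M_KO 3 also had the lowest sum over the 46 genes outside MZ_KO. Its granulosa marker sum was 734 CPM, against 0.29 to 106 CPM in the other M_KO embryos. Only 2 of the 6 listed granulosa markers were in the blastocyst table, and Star alone gave 707 CPM of that sum. The part of this in the replication genes of M_KO 3 was not tested. Among het blastocysts, Gins1 was high in het 5 at 59.0 CPM (44.1 to 46.2), Rfc4 was low in het 3 at 88.9 CPM (98.2 to 99.5) and Chaf1a was low in het 6 at 74.1 CPM (117 to 125). In morulae, Orc3 was high in MZKO 3 at 152.9 CPM (74.5 to 98.9 in the other MZKO embryos).

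Rpa1 is listed here because the test of the difference between stages passed, with -2.66 on the log2 scale for the blastocyst effect minus the morula effect.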

How the results depend on the processing

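Counts of replication genes past the threshold stayed within 1.5 times the reported value in all comparisons and settings run, with these exceptions. In MZ_KO against M_KO blastocysts, leaving out 1 embryo gave 6 to 12 genes instead of 10, with 6 without M_KO 1 or without M_KO 4. The range was 7 to 10 against WT_flfl and 8 to 10 against het, where the 10 without het 3 were 9 lower and 1 higher (Pold3). The difference of the knockout effect between stages gave 1 gene in the reported fit. It gave 3 with a pseudocount of 5, 4 with read total scaling, 4 with median-of-ratios scaling, 4 with voom weights and 2 with only the groups compared in the fit. In these settings 181, 228, 232, 218 and 65 of all genes passed, of 8572 to 8596 tested. Leaving out 1 embryo gave 1 to 5, with 5 without morula MZKO 1, 3 without MZKO 8 and 2 without MZKO 6 or het 1. Of 8387 to 8554 genes tested there, 220, 161, 156 and 706 passed in that order. Without MZKO 1, het 1 and del 6, chosen after seeing the data, it gave 5, where 906 of all 8167 genes passed. MZKO against het morulae then gave 1 instead of 0, where 98 of all 9009 genes passed. The cause was not tested. No gene called in the reported fits was called in the opposite direction under an alternative. Across the alternatives, 427 repeats of single-gene calls stayed past the threshold and 43 did not. The 43 concerned Prim2, Lig1, Chaf1a, and, against M_KO alone, Mcm2, Mcm6 and Mcm7. Mcm3, Pold1, Pole, Rfc5 and Rpa1 passed in all 3 MZ_KO comparisons under every alternative run. Without WT_flfl 1 and het 6, the embryos with the highest red blood cell sums, 9 genes were lower against WT_flfl and 9 against het. With the looser filter or none, the median of all genes in del against het was -0.10.

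The fits with a replicate block called 0 replication genes in M_KO against het and 0 in MZKO against del, as without it. Deviations of same-numbered embryos correlated between -0.14 and 0.14, so the numbers were not taken to pair the embryos. Depth limits the morula comparisons most in del 6, and the small groups limit all of them.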
